A study of Mus musculus with 18 samples.

Results

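The comparison concerned 2iL-iPSCs against 2iL-ESCs, 8 of the 18 libraries of the series, chosen by their sample titles. The 2iL-iPSCs were clones 3 and 6, at passages 2 and 3, and the 2iL-ESCs were 6 cultures of 1 ESC line, 2 each at days 18, 25 and 38. A gene was counted as different only where both clones lay above or below all 6 cultures in FPKM (fragments mapped to a gene, scaled to its length and to the library's total), and genes of chromosomes X and Y were left out. The 2iL-iPSCs came from MEF cells (mouse embryonic fibroblasts) of the strain (C57BL/6 x 129S4/SvJae)F1 that carried Tet-On-OSKM, a DOX (doxycycline)-inducible cassette of Oct4, Sox2, Klf4 and c-Myc at Col1a1 with the M2rtTA activator at Rosa26. They were reprogrammed in 2iL with DOX, where 2iL is N2B27 with the MEK inhibitor PD0325901, the GSK3 inhibitor CHIR99021 and LIF. The 2iL-ESCs carried the same Tet-On-OSKM alleles and in addition an Oct4-GFP reporter, on a cross of (C57BL/6 x 129S4/SvJae)F1 with (CBA/CaJ X C57BL/6J)F2, and stayed in 2iL on mitomycin C-treated MEF feeders. The methods place the reprogrammed MEF cells on feeders as well. For the routine culture of the 2iL-iPSCs, the labels give N2B27 with DOX and the methods give 2iL without DOX. Origin, strain, the Oct4-GFP allele, passage and the 1 ESC line cannot be told apart in any difference below.

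iPSCs are somatic cells returned to pluripotency by transcription factors, and ESCs are derived from the blastocyst. In 2iL such cells settle in the naive ground state, in which ERK signalling is blocked, beta-catenin is stabilized, DNA methylation is low and factors such as Nanog, Esrrb, Klf2 and Tfcp2l1 are strongly expressed. Comparisons of iPSCs with ESCs usually ask about residual expression of the somatic program, about imprinted loci, and about germline and early embryonic genes that depend on DNA methylation or on rare cells of the culture.

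Both clones carried the naive program and lacked that of the MEF cells. Of 8 defining naive markers none was under an FPKM of 1 in either clone, and Pou5f1 (Oct4), Nanog and Esrrb reached 811, 207 and 245. Of 12 defining fibroblast markers, 11 were under 1 in both clones and 9 in all 6 cultures, and the highest value in the clones was 2.10 for Thy1. Levels of MEK/ERK targets summed to 373 and 374 in the clones, 357 to 395 in the 2iL-ESC cultures and 560 to 838 in the OSKM-ESCs, which grow in N2B27 with DOX. The clones lay within the 2iL-ESC range and below all OSKM-ESC cultures. The OSKM-iPSC clones, also in N2B27 with DOX, had 528 and 385, and the second of these lay within the 2iL range as well. Levels of WNT/beta-catenin targets, which the GSK3 inhibitor raises, summed to 108 and 91.5 in the clones and 123 to 144 in the 2iL-ESC cultures. The OSKM-ESCs had 94.0 to 136 at days 18 and 25 and 423 and 421 at day 38, and the OSKM-iPSC clones had 65.5 and 45.04. The clones lay below the 2iL-ESC range in this sum. Levels of naive pluripotency factors summed to 1726 and 1814 in the clones and 1608 to 2277 in the 2iL-ESC cultures. They summed to 493 to 616 in the OSKM-ESCs and OSKM-iPSC clones. Which medium the clones were in was not tested. Relative depth, taken as mean coverage per unit of FPKM in genes with 1 annotated transcript, was 5.61 and 5.79 in the clones and 5.01 to 6.07 in the cultures. From 11305 to 11843 genes passed an FPKM of 1 in each of the 8 libraries.

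Of 12681 genes tested, 1260 lay above the range of the cultures in both clones (9.94%) and 1454 below it (11.5%). Of these, 358 and 288 also differed more than 2-fold in mean FPKM. Genes were called higher or lower where, in addition, limma on log2(FPKM + 1) gave a Benjamini-Hochberg adjusted p-value under 0.05. By these criteria 146 genes were called higher (1.15%) and 96 lower (0.757%). Without clone 3 the counts were 71 and 49, without clone 6 they were 68 and 37, and leaving out a culture gave 79 to 187 higher and 53 to 133 lower. Without either day 38 culture, 79 genes were called higher, and 53 or 54 lower, and without the first day 25 culture 61 were called lower. An exact 2-sided permutation test of 2 clones against 6 cultures cannot give a p-value below 0.0714, so single genes were tested only in the limma fit, and its p-values cover the spread between these cultures of 1 line and 2 clones.

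Over all genes tested, the distance between the clones on the log2 scale was 47.3, against 30.6 to 37.0 between cultures of the same day, 43.7 to 69.9 between cultures of different days and 58.8 to 71.5 between a clone and a culture. The clones were therefore no farther apart than many cultures of different days. Their mean distance was 60.4 and 61.0 to the day 18 cultures, 70.4 and 69.0 to day 25, and 61.2 and 60.8 to day 38.

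**Figure D1:**
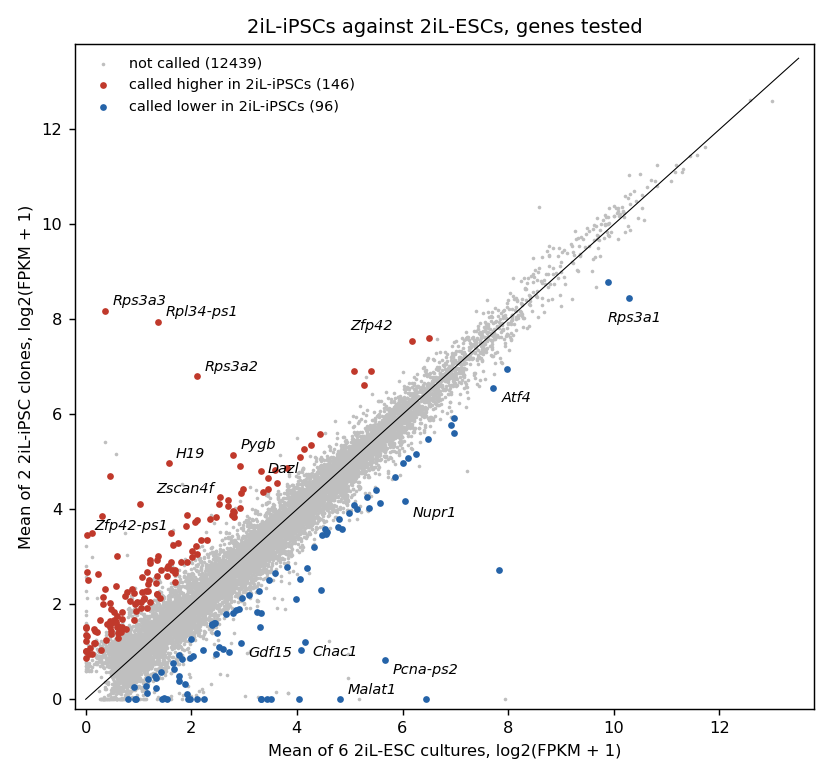
Mean expression of the genes tested in the 6 2iL-ESC cultures (x axis) and the 2 2iL-iPSC clones (y axis), both as log2(FPKM + 1), with called genes in colour. The 3 called genes farthest above the diagonal are the processed copies Rps3a3, Rpl34-ps1 and Rps3a2, and several genes called lower lie at 0 in the clones.

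Copies of ribosomal protein genes gave the largest positive differences. Processed pseudogenes, the intronless copies that retrotransposition leaves in the genome, were 26 of the 146 genes called higher (17.8%) and 8 of the 96 called lower (8.33%), against 3.04% of all genes tested. Rps3a3 (chromosome 13, 108670603 to 108671397) and Rps3a2 (chromosome 14, 88123017 to 88123808) are single-exon copies of Rps3a1 (chromosome 3, 86137940 to 86142702), which encodes a protein of the small ribosomal subunit. In GENCODE M21 transcripts on GRCm38, Rps3a3 matched Rps3a1 at 786 of 795 bases (98.9%) and Rps3a2 at 788 of 792 (99.5%). The longest stretch without a difference between Rps3a1 and Rps3a3 was 215 bases. The same 60 bases are given for the 3 genes to show how little separates them, with capitals at the bases where Rps3a1 and Rps3a3 differ and, in Rps3a2, where it differs from Rps3a1.

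Rps3a1: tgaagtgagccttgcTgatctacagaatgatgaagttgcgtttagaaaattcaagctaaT

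Rps3a3: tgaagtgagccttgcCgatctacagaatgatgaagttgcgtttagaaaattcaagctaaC

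Rps3a2: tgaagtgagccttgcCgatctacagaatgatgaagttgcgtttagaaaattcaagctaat

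In clone 3 Rps3a3 reached 291 FPKM and in clone 6 it reached 288, with at most 0.514 in the 6 cultures (median 0.320). The groups did not overlap, and the difference was 7.82 ± 0.15 on the log2 scale (limma adjusted p = 8.55e-09). Rps3a2 had 111 and 112 in the clones and 2.40 to 4.55 in the cultures. The parent Rps3a1 had 363 and 331 in the clones and 1050 to 1454 in the cultures, a 3.61-fold lower mean in the clones (limma adjusted p = 0.000254). Summed over the 3 genes, the level was 765 and 731 in the clones and 1256 ± 166 (SD, n = 6) in the cultures. Since the deposited values rest on uniquely mapped reads, the division of reads among copies this similar is uncertain, and single values of Rps3a1, Rps3a2 and Rps3a3 cannot be taken apart from one another.

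Rpl34-ps1, a copy that matched the Rpl34 transcript at 352 of 354 bases, had an FPKM of 219 and 273 in the clones and 0.974 to 2.33 in the cultures. Rpl34 and Rpl34-ps1 together summed to 592 and 755 in the clones and 421 to 732 in the cultures, so the sum overlapped where the copy did not. Pcna-ps2, a copy of the replication clamp gene Pcna, went the other way, from 49.8 ± 9.21 (SD, n = 6) in the cultures to 0.710 and 0.837 in the clones. With Pcna added, the sum was 276 and 298 against 283 to 428, and again overlapped. Rps15a-ps7 had 27.2 and 30.9 in the clones and 3.76 to 11.8 in the cultures, and Zfp42-ps1, a copy of Zfp42, had 8.49 and 11.5 in the clones and was listed at 0 in 5 of the 6 cultures.

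Noncoding RNAs were among the genes called lower with values at 0. In all, 16 of the 96 genes called lower were listed at 0 in both clones. Malat1, an abundant nuclear noncoding RNA, was listed at 0 in both clones and at 13.3 to 34.2 in the cultures, but also at 0 in 1 MEF library and at 53.5 in the other, and at 0 in at least 1 OSKM-ESC culture, so a 0 in these files can be a failed estimate. Snord19 was listed at 0 in both clones and at 4.27 to 12.1 in the cultures, and Snord43 had 5.10 and 1.51 against 11.4 to 17.0. Ubd, which encodes a ubiquitin-like modifier, was listed at 0 in both clones and at 4.87 to 15.7 in the cultures, highest at day 18. No fold of mean FPKM is given for genes listed at 0 in a group.

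Among the naive pluripotency factors, Zfp42 (Rex1) was the 1 gene called, of 18 tested, where 1.15% of all genes were called higher. Zfp42 (chromosome 8, 43295063 to 43306980) is a zinc finger gene used as a marker of the naive state. Its FPKM was 177 in clone 3 and 196 in clone 6. In the cultures it was 73.9 and 80.6 at day 18, 71.0 and 74.4 at day 25, and 65.2 and 61.2 at day 38. Both clones lay above every culture, 2.63-fold in the mean (log2 difference 1.39 ± 0.12, limma adjusted p = 0.000385). Nr5a2 and Zfp57 also lay above the range, by 1.09-fold and 1.28-fold, and Klf4, Klf5 and Tfap2c below it, without a call. Nanog had 195 and 207 in the clones and 199 to 283 in the cultures, and Esrrb had 216 and 245 against 169 to 268, so both overlapped the cultures. The median log2 difference of the 18 factors was -0.10, beside -0.04 over all genes. None of 14 general pluripotency factors was called, and Gdf3 and Trim28 lay above the range.

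The transgene factors gave no call with the cultures of all days as 1 group. Pou5f1 had an FPKM of 668 and 811 in the clones and 596 to 843 in the cultures, and Sox2 had 118 and 113 against 103 to 229. Klf4 had 28.6 and 22.4 in the clones and 28.7 to 96.8 in the cultures, below the range by a small margin at day 18 (limma adjusted p = 0.212). Myc was above the range, with 16.7 and 16.1 against 7.57 to 13.6 (limma adjusted p = 0.0696), and far below the 67.9 to 141 of the OSKM-ESCs. With days as separate terms, Klf4 (limma adjusted p = 0.000771), Myc (0.00717) and Sox2 (0.0138) passed the threshold of the test, Myc and Sox2 with differences under 2-fold. Both clones lay within the range of the cultures for Sox2. Such a fit leaves the spread between days out of its error. Its p-values, here and below, cover only the spread within a day and between the clones. The FPKM values sum the endogenous gene and any transcript of the cassette that maps to it.

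Zscan4 genes mark a rare, transient state of ESC cultures that resembles the embryo at genome activation, along with Usp17l, Tdpoz and Eif1a-like genes. Of 24 symbols in the list 20 were in the table and 12 were tested. The tested members lay above all 6 cultures in both clones, where 9.94% of all genes did, and 7 were called higher, where 1.15% were. Of these, Gm4340, Usp17lc and Tdpoz4 passed the filter (an FPKM over 1 in at least 1 library) through the clones alone, so that they had to be higher there, and they are 3 of the 7 calls. The other 9 passed it in both groups, and of these 9 lay above the range and 4 were called. These counts describe the members that passed and not the whole list.

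Zscan4f, a DNA-binding factor of this state, reached 19.2 FPKM in clone 3 and 15.5 in clone 6. In the cultures it had 9.69 and 8.25 at day 18, 4.91 and 3.58 at day 25, and 3.56 and 3.11 at day 38. Both clones were above the day 18 cultures, which were the highest, and the mean was 3.15-fold that of the cultures (log2 difference 1.59 ± 0.36, limma adjusted p = 0.0481). Zscan4c had 16.8 and 14.7 against 2.95 to 8.45, and Zscan4e had 15.2 and 10.7 against 2.56 to 6.65. Gm8300, an Eif1a-like model of chromosome 12, had 8.85 and 4.43 against 0.776 to 2.04, and Gm4340 had 2.44 and 1.87 against 0.123 to 0.657. Usp17lc (2.56 and 1.60 against 0 to 0.776) and Tdpoz4 (1.26 and 0.623 against 0 to 0.106) were called at low levels.

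Zscan4a, Zscan4b and Zscan4d also lay above the range but missed the threshold, with limma adjusted p-values of 0.0679, 0.0553 and 0.0809. Zscan4a to Zscan4f are close copies in 1 cluster on chromosome 7, and their sum was 84.7 and 70.5 in the clones and 13.7 to 41.6 in the cultures. Of the genes called, 4 within 11005745 to 11519111 on chromosome 7 (Zscan4c, Zscan4e, Zscan4f and Zscan4-ps2) and 10 within 87494721 to 88324026 on chromosome 12, mostly predicted Gm models with Gm8300 among them, were all higher. The calls of the 2-cell list depended on single libraries. Without clone 3 none of the 12 was called, without clone 6 there were 3, without either culture of day 25 or of day 38 there were 2, and without the first day 18 culture there were 11. Between 11 and 12 members stayed outside the range in each of these cases.

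Day of culture moved with the same genes. In 9 of the 12 members both day 18 cultures lay above the other 4 cultures, where this held for 19.4% of all genes tested. With the day 18 cultures left out, 11 of the 12 were called. A higher level in each cell and more cells in this state cannot be told apart in bulk RNA, here or in any list below. Trim43a, an early embryonic gene of another list, had 2.52 and 0.781 in the clones against 0.0471 to 0.409, and was called higher. It passed the filter through the clones alone, so that a higher value in the clones was favoured for it. Of the 6 members of its list that passed the filter in both groups, 1 lay above the range and none was called.

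Of 21 germline genes that DNA methylation silences in somatic cells, 8 lay above the range and 1 below it, where 9.94% and 11.5% of all genes did. Dazl and Zfp42 were called higher, where 1.15% of all genes were, and Zfp42 is also a member of the naive list. The filter was passed through the clones alone by 2 members, so that a higher value there was favoured for them. Of the 19 that passed it in both groups, 7 lay above the range, 1 below, and 2 were called higher. Dazl, an RNA-binding protein gene of germ cells, reached 36.1 FPKM in clone 3 and 17.8 in clone 6, against 6.67 to 11.7 in the cultures (limma adjusted p = 0.0208). Both clones lay above every culture, with clone 3 well above clone 6. Fkbp6 had 37.0 and 31.8 against 5.56 to 25.7, with the day 18 cultures at 25.7 and 22.1 and the other 4 at 6.12 or less, and was not called (limma adjusted p = 0.142). Mael, Piwil2, Tex19.1, Tuba3a and Tuba3b were the other members above the range. Ddx4, Hormad1, Sycp3 and Rpl10l overlapped the cultures. The median of the list was 0.59. Stra8, a meiotic entry gene outside the list and picked after its value was seen, was also called higher, with 26.9 and 14.04 against 5.06 to 9.92.

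**Figure D2:**
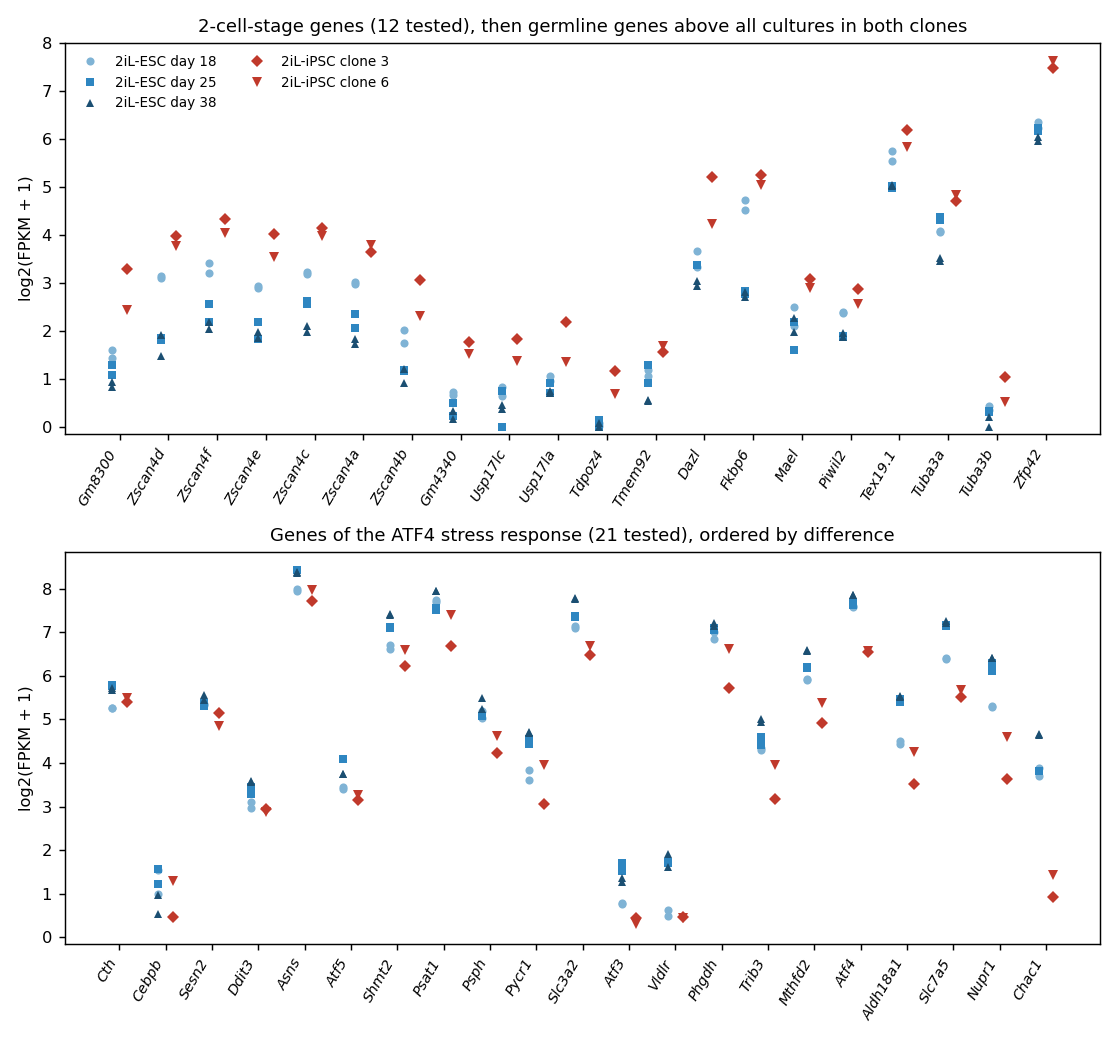
Expression by library, as log2(FPKM + 1), of the 2-cell-stage genes and the germline genes above the range (top) and of the genes of the ATF4 response (bottom), with cultures in blue by day and clones in red. Clones lie above all cultures for the 20 genes at the top, and below them for 17 of the 21 at the bottom, where Cth, Cebpb, Asns and Pycr1 overlap.

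Genes of the ATF4 response were lower in the clones. ATF4 is a transcription factor whose translation rises when amino acids are short or the endoplasmic reticulum is stressed, and it drives genes of amino acid synthesis and import. Of 23 symbols in the list 22 were in the table and 21 were tested. Of these, 17 lay below all 6 cultures in both clones and none above, where 11.5% of all genes lay below, and 5 were called lower, where 0.757% were. The filter was passed through the cultures alone by 2 members, so that a lower value in the clones was favoured for them. Of the 19 that passed it in both groups, 15 lay below the range and 5 were called lower. The median log2 difference of the 21 was -0.83. Without clone 3, without either culture of day 25 or without either culture of day 38, 2 of the 21 were called, and without clone 6 there were 3, while 17 to 20 stayed below the range.

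Chac1, which degrades glutathione, was at 0.910 FPKM in clone 3 and 1.71 in clone 6, and at 11.97 to 24.4 in the cultures. The groups lay far apart, with a 12.8-fold lower mean in the clones (log2 difference -2.90 ± 0.29, limma adjusted p = 0.00112). Atf4 itself (chromosome 15, 80255184 to 80257541) had 92.2 and 94.6 in the clones. Its cultures had 193 and 190 at day 18, 203 and 197 at day 25, and 232 and 233 at day 38, so that the clones were 2.23-fold lower in the mean (limma adjusted p = 0.000896). Nupr1, a stress-induced chromatin protein gene, had 11.3 and 23.1 against 38.0 to 84.6.

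Mthfd2, an enzyme of mitochondrial one-carbon metabolism, had 29.1 and 40.4 against 58.6 to 95.0. Slc7a5, which encodes the light chain of a transporter of large neutral amino acids, had 45.1 and 50.4 against 82.5 to 152, and lies on chromosome 8. Its partner Slc3a2 had 89.0 and 103 against 137 to 220, below the range without a call (limma adjusted p = 0.0555). The serine synthesis genes Phgdh, Psat1 and Psph were also below the range in both clones, with mean differences under 2-fold. Asns, asparagine synthetase, overlapped the cultures, with 209 and 250 against 245 to 346. In 16 of the 21 members, both day 18 cultures lay below the other 4 cultures, where this held for 34.0% of all genes tested.

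Outside the list, Gdf15, a stress-induced cytokine gene of chromosome 8, had 1.59 and 0.969 in the clones against 4.37 to 9.19 in the cultures. Herpud1, an endoplasmic reticulum stress gene of chromosome 8 picked after its value was seen, had 4.77 and 4.79 against 12.6 to 20.6. Glycolysis enzymes and hypoxia genes gave no call. The median was -0.37 over 21 glycolysis enzymes, and Pdk1, Ldha and Eno2 lay below the range.

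The promoters of the called members Chac1 and Nupr1 are given because both hold the letters TGATGNAA, a pattern of the sites that ATF4 binds with CEBP proteins. RefSeq sequences of GRCm38.p6 from 250 bases before to 50 after the start were searched on both strands, and 20 of the 23 genes of the list had one. The pattern was in 8 of the 20 (40.0%) and in 3.97% of all 32851 promoters, or 4.51% of 27025 symbols. The list was gathered as ATF4 targets, so a higher share in it was likely in advance and does not bear on the clones. Of 16 members below the range with a promoter, it was in 5. It was not found in those windows of Atf4 and Mthfd2. The 250 bases before the start are printed for Chac1 (chr2:119350992-119351241, plus strand) and Nupr1 (chr7:126625471-126625720, minus strand), with the pattern, here read from the opposite strand, in capitals.

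Chac1: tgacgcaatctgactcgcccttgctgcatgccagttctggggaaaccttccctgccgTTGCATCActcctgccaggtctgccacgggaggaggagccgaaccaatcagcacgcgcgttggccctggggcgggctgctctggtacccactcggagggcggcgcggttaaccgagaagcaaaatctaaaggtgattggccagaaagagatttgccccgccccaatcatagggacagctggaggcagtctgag

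Nupr1: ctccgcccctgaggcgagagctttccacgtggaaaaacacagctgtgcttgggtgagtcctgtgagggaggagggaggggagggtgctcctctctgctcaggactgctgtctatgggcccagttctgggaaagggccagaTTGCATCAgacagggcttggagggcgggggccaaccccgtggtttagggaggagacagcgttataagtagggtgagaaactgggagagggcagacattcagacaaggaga

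The pattern begins 193 bases before the start in Chac1 and 110 in Nupr1. These are matches of letters in a window, and no binding was measured in these cells.

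Imprinted genes, expressed from 1 parental allele, gave 3 calls. At the Dlk1-Dio3 locus, whose silencing has been used as a sign of poor iPSCs, none of 8 genes was called and 3 lay above the range, where 9.94% of all genes did. Meg3, the noncoding RNA of its maternal allele, had an FPKM of 83.9 and 89.7 in the clones and 50.05 to 80.1 in the cultures, and Rian had 131 and 121 against 90.5 to 114, so neither was low in either clone. Of 41 other imprinted genes, 9 lay above the range and 9 below (11.5% of all genes lay below). H19 and Nnat were called higher and Sgce lower, where 1.15% and 0.757% of all genes were. The filter was passed through the clones alone by 2 members and through the cultures alone by 2, which favoured that side for them. Of the 37 that passed it in both groups, 8 lay above and 8 below, 2 were called higher and 1 lower.

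H19 (chromosome 7, 142575529 to 142578143) is a maternally expressed noncoding RNA that is abundant in embryonic fibroblasts. It reached 44.5 FPKM in clone 3 and 16.1 in clone 6, against 1.14 to 3.46 in the cultures and 2222 and 1696 in the MEF libraries. Both clones were above every culture, 15.4-fold in the mean (log2 difference 3.28 ± 0.38, limma adjusted p = 0.00231), and clone 3 was well above clone 6. The neighbouring Igf2, expressed from the paternal allele, had 2.22 and 0.580 in the clones, 0.0642 to 0.953 in the cultures and 1123 and 1159 in MEF cells, and was not called. Nnat, a paternally expressed gene, had 14.3 and 16.3 against 4.91 to 7.90 (limma adjusted p = 0.0149). Sgce had 1.67 and 0.618 against 3.01 to 6.16, the other direction (limma adjusted p = 0.0227).

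Fibroblast markers gave 1 call, and it was lower in the clones. Of 14 members tested, 2 lay above the range and 3 below, where 9.94% and 11.5% of all genes did. The filter was passed through the cultures alone by 6 members, among them the 3 below and the 1 called, so that a lower value in the clones was favoured for them. Of the 8 that passed it in both groups, none was called and none lay below the range. Sparc, a matrix glycoprotein gene, was above it, with 106 and 93.1 in the clones against 66.8 to 76.4 in the cultures (limma adjusted p = 0.0415, under 2-fold). Acta2, smooth muscle actin, was above it by a small margin, with 1.43 and 1.23 against at most 1.20. Col1a1, Col1a2 and Col5a2 were the members below. Col1a1, the collagen gene whose locus also holds the OSKM cassette, had an FPKM of 0.275 and 0.170 in the clones and 1.05 to 1.52 in the cultures, against 609 and 518 in MEF cells. Col1a2 had at most 0.144 in the clones and at least 0.560 in the cultures. Over the 38 markers in the table, the summed level was 453 and 454 in the clones, 372 to 526 in the cultures and 10680 and 11120 in MEF cells. Feeder cells were used in the making of both groups, and their part in the Col1a1 difference was not tested.

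Among signalling lists, none of 18 MEK/ERK targets and none of 13 WNT targets was called. Of the MEK/ERK targets, 4 lay above the range (Dusp6, Spry2, Spry4 and Myc) and 2 below (Spred2 and Ier2). Over all genes 9.94% lay above and 11.5% below. Dusp6, a feedback inhibitor of ERK signalling as are Spry2 and Spry4, had 10.1 and 8.35 against 5.01 to 6.68 (limma adjusted p = 0.0577). In the OSKM-ESCs it reached 29.5 to 41.3. Of the 13 WNT targets, 3 lay below the range (Lef1, Tcf7 and Cdx1) and none above, with Lef1 at 5.73 and 5.03 against 8.16 to 22.3. Lef1 passed the threshold with days as separate terms (limma adjusted p = 0.00154). Of 13 LIF/STAT3 targets 1 was called lower, where 0.757% of all genes were. It was Bcl3, an IkappaB-like coactivator that had 12.8 and 19.3 against 26.3 to 41.9. Of 24 interferon-stimulated genes, 5 lay below the range (Stat2, Oasl2, Bst2, Zbp1 and Igtp), where 11.5% of all genes did, and none was called. The filter was passed through the cultures alone by 11 of them, so that a lower value in the clones was favoured for these. Of the 13 that passed it in both groups, 2 lay below the range. In 20 of the 24 both day 18 cultures were above the other 4, where this held for 19.4% of all genes. Bst2, a virus restriction factor gene of chromosome 8, had 340 and 263 at day 18, 63.5 to 81.0 later and 28.3 and 25.9 in the clones. With days as separate terms Bst2 passed the threshold (limma adjusted p = 5.18e-05).

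A few lineage and epithelial genes were called at low levels. Krt8 and Krt18, the keratin pair of simple epithelia, had an FPKM of 15.7 and 9.08 and of 11.4 and 5.70 in the clones, against 2.08 to 4.78 and 0.975 to 3.15 in the cultures. Cldn6, an epithelial claudin of early embryonic cells, had 11.6 and 15.2 against 3.92 to 7.19. Of 6 primitive endoderm markers tested, Lrp2 and Col4a1 lay above the range and were called higher, and Apoe lay below it. Over all genes 9.94% lay above and 11.5% below, and 1.15% were called higher. Lrp2 and Col4a1 had at most 5.12 in the clones, while Gata4, Gata6, Sox17 and Sox7 stayed under 1 in both clones. Of 13 trophoblast markers tested, Krt8, Krt18 and Ascl2 lay above the range and Phlda2 below, and the keratins were called. Of the trophoblast factors Cdx2, Elf5 and Gata3 were under 1 in both clones, and Eomes had 3.15 and 2.86 against 2.36 to 5.37. Of 5 neural markers tested, Nes and Map2 lay below the range. Map2, a neuronal cytoskeleton gene, was called lower, where 0.757% of all genes were, with 1.09 and 0.650 against 2.06 to 3.98.

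Several called genes belonged to no list. Pygb, brain-type glycogen phosphorylase, had an FPKM of 31.8 and 37.2 against 3.29 to 9.61 (log2 difference 2.44 ± 0.35). Wdfy1, an endosomal adaptor, had 11.4 and 9.24 against 1.27 to 3.99, and Adam23, a neural cell-surface protein, had 15.3 and 21.3 against 2.82 to 6.14. On the lower side, Galnt6, an enzyme that starts O-linked glycosylation, had 4.67 and 3.25 against 16.7 to 26.2. Commd5 had 1.03 and 1.10 against 6.61 to 25.6. Rnaset2b, 1 of a pair of near-identical ribonuclease genes, had 0.0234 and 3.69 against 7.85 to 11.0, so that its 2 clones were far apart. Among 6 metallothioneins, which bind metal ions, Mt1, Mt2 and Mt3 lay below the range, where 11.5% of all genes did. Their list had a median log2 difference of -0.56. Mt2 was called lower, where 0.757% of all genes were, with 138 and 109 against 214 to 341. Mt2 lies on chromosome 8, where 39.0% of the genes tested lay below the range. Of 19 p53 targets, 6 lay above the range and 2 below, where 9.94% and 11.5% of all genes did, with a median of 0.28. Trp53 itself and Ccng1, Sesn1, Aen, Gtse1 and Btg2 were the members above. Pmaip1, a proapoptotic gene, was the 1 member called, lower in the clones, with at most 3.67 against 6.18 to 12.2.

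Chromosome 8 differed as a whole. Of its 712 genes tested, 278 (39.0%) lay below the range of the cultures in both clones and 18 (2.53%) above, whereas on the other chromosomes the shares were 9.83% and 10.4%. Over the 570 genes of chromosome 8 with an FPKM over 1 in all 8 libraries, the median deviation from the 2iL-ESC median was -0.36 in each clone on the log2 scale, against -0.08 to 0.04 in the cultures. The next lowest autosomal median in a clone was -0.15, for chromosome 18 in clone 6. The deviation ran along the whole chromosome, since 4 equal sets of genes by position had medians of -0.31 to -0.41 in the clones. Of the chromosome's genes, 491 of 570 (86.1%) had a mean deviation below 0, against 55.3% on the other autosomes.

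The libraries in N2B27 with DOX gave a reference outside the comparison. With the 6 OSKM-ESC cultures as the reference, the level of chromosome 8 relative to the other autosomes was 1.15 to 1.23 in the 6 2iL-ESC cultures. It was 0.937 and 0.979 in the 2iL-iPSC clones, 0.985 to 1.03 in the OSKM-ESCs and 0.956 and 0.982 in the OSKM-iPSC clones. The 2iL-ESC cultures thus lay above all 10 other pluripotent libraries, with both clones below the lowest OSKM-ESC culture. Over 549 genes of the chromosome, all 6 2iL-ESC cultures were above the other 10 libraries in 65 (11.8%), against 0.808% of 8786 genes on the other chromosomes. DNA was not measured, and copy number was not tested.

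**Figure D3:**
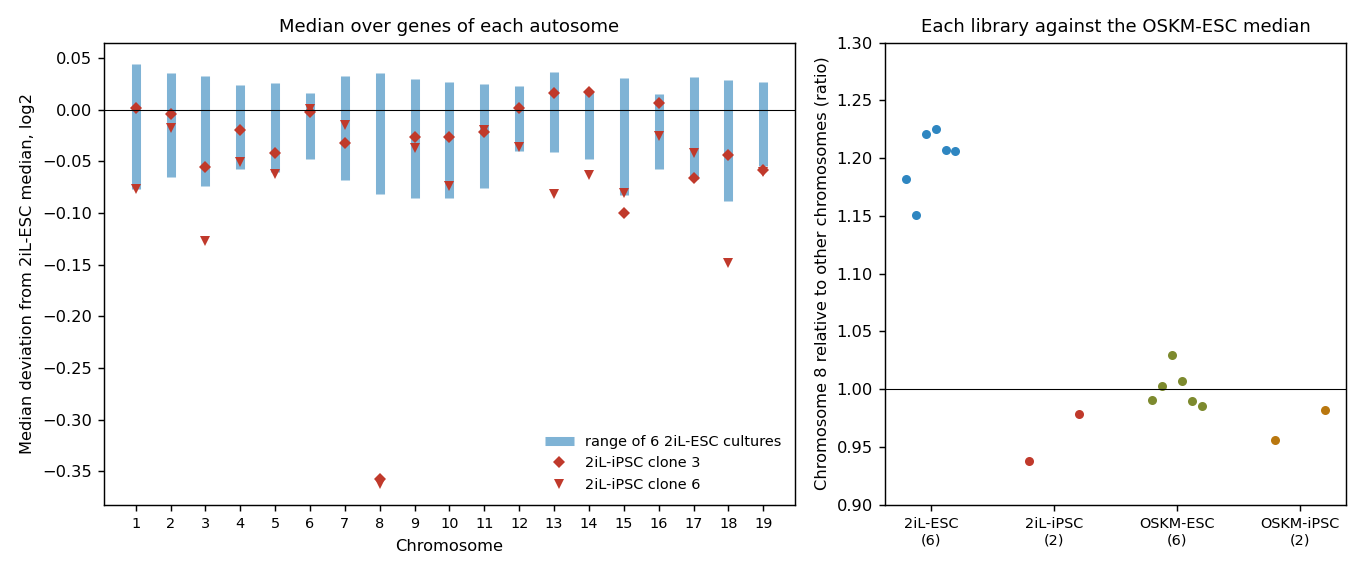
Left, median deviation from the 2iL-ESC median (log2) over genes of each autosome, with the range of the 6 2iL-ESC cultures as bars and the 2 clones as points. Right, level of chromosome 8 relative to the other autosomes (ratio, axis from 0.9) in each of 16 libraries, where the 2iL-ESC cultures sit at 1.15 to 1.23 and the other libraries at 0.937 to 1.03.

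Chromosome 8 touches some of the calls. Of the 96 genes called lower, 14 lie on it, Slc7a5, Gdf15, Herpud1, Mt2 and Jak3 among them. With the chromosome's median of -0.31 taken off, the log2 difference of Slc7a5 was -1.02, that of Gdf15 -1.41 and that of Mt2 -0.69. Zfp42, Col4a1 and Ushbp1 were called higher against the direction of the chromosome, and for Zfp42 the difference was 1.70 after the same step. Fitted without chromosome 8, 125 genes were called higher and 69 lower on the remaining chromosomes, against 143 and 82 of those in the full fit.

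The same comparison in the other medium, 2 OSKM-iPSC clones (at passages 7 and 6) against 6 OSKM-ESC cultures, shares no library with this one. Both sets of iPSCs came from MEF cells of the same alleles and both sets of ESCs from 1 line, so a difference of the ESC line recurs in both. In that comparison 9.89% of genes lay above the range of the cultures and 7.96% below. Of the genes called higher in 2iL, 98 were tested there and 43 (43.9%) were again above the range. These 43 are 3.29% of the 1307 genes above it. Of the genes called lower, 88 were tested and 36 (40.9%) were again below, which is 3.42% of 1052.

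Some of the largest differences had about the same size in both media. Rps3a3 differed by 7.82 in 2iL and 7.54 in OSKM cells on the log2 scale, Rpl34-ps1 by 6.59 and 6.32, and Pcna-ps2 by -4.82 and -4.79, with Rps3a1 at -1.84 and -1.80. Wdfy1 differed by 1.93 and 2.30, Adam23 by 1.76 and 1.95, and Krt8 by 1.67 and 1.51, although for Krt8 the OSKM groups overlapped. For these genes the limma interaction, the 2iL difference minus the OSKM difference, gave adjusted p-values of 0.202 to 0.921.

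Other differences were unequal in the 2 comparisons, which also differ in clones, passages and DOX, and these cannot be told apart from the medium. In the interaction fit each day of the ESCs was its own term, so its p-values also leave out the spread between days. They are not alike to those of the main fit. Genes called in 2iL were chosen on values that enter the interaction, which favours a large one. The interaction was past an adjusted p-value of 0.05 in 14.3% of 14082 genes. It was so in Chac1 (-1.76 ± 0.24), which differed by -2.90 in 2iL and -1.15 in OSKM cells, and in Galnt6 (-3.02), which differed by -2.15 and 0.88. H19 differed by 3.28 in 2iL and 5.35 in OSKM cells (interaction -2.06, adjusted p = 0.0203), with an FPKM of 337 and 917 in the OSKM-iPSC clones. Zscan4 genes were near 0 in OSKM-ESCs and OSKM-iPSCs alike, at most 0.582 for Zscan4f, so that the interaction of Zscan4f (1.41, adjusted p = 0.00582) carries the 2iL difference. Myc, called in neither, differed by 0.73 and -0.93 (interaction 1.66, adjusted p = 0.00266).

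**Figure D4:**
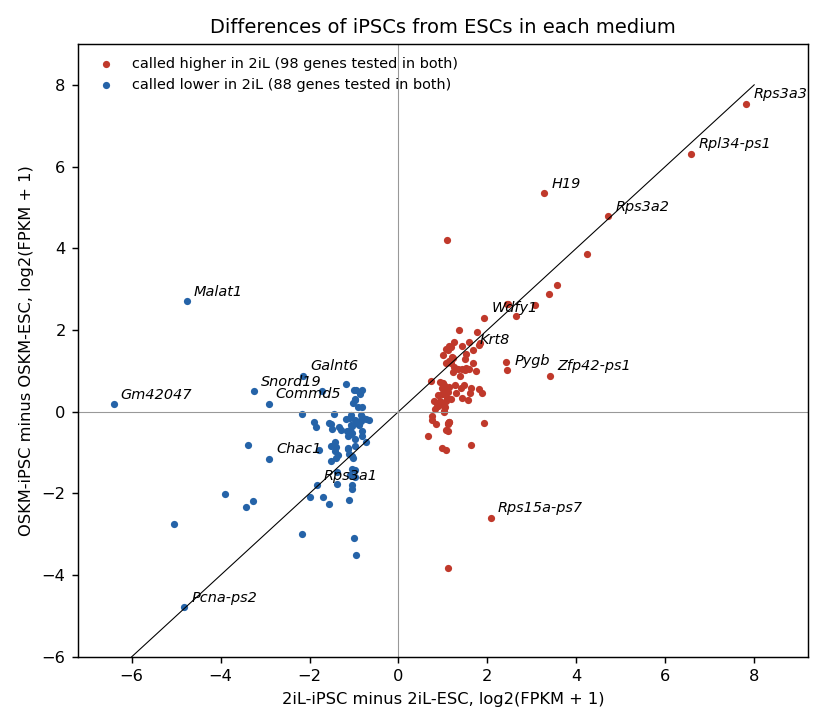
Difference of iPSCs from ESCs on the log2(FPKM + 1) scale in 2iL (x axis) and in OSKM cells (y axis) for the called genes tested in both media, with the line of equal difference. Rps3a3, Rpl34-ps1, Rps3a2 and Pcna-ps2 lie near the line, while Malat1, Rps15a-ps7 and Galnt6 have opposite signs in the 2 media.

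MEF cells did not express most of the genes called higher. Of these 146 genes, 51 (34.9%) had an FPKM over 1 in both MEF libraries and 54 were listed at 0 in both, while 77.9% of all genes tested were over 1. The median MEF level was 0.354 for the genes called higher, 4.23 for those called lower and 7.74 over all genes. H19 and Pygb (29.2 and 26.1 in MEF cells) were among the higher genes that MEF cells express, whereas Zfp42, Dazl and the Zscan4 genes were listed at 0 in both MEF libraries. By gene type, 86 of the 146 genes called higher (58.9%) and 65 of the 96 called lower (67.7%) were protein-coding, against 88.5% of genes tested. Predicted models and clone names made up 61 of the genes called higher and 25 of those called lower.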

How the data were processed

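RNA-Seq libraries of poly(A) RNA were made by the authors, who aligned reads to GRCm38 with STAR 2.7.1a, retained reads with 1 mapping position and quantified genes with StringTie 2.0. FPKM per gene, as deposited, were the values used. The deposited coverage, a signal of mean reads per base without normalization, served as relative depth alone, and depth in reads is unknown. Genes whose value had failed in a library (2, St13 and U2surp) were left out, and 11 repeated identifiers were summed. Columns of another unit were not used here.

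For the tests, limma 3.58.1 in R 4.3.3 (trended eBayes) took log2(FPKM + 1) of genes off chromosomes X and Y with an FPKM over 1 in at least 1 of the 8 libraries, 2 clones against 6 cultures, with Benjamini-Hochberg adjustment over all genes tested. Calls needed an adjusted p-value under 0.05, a fold of mean FPKM over 2 and no overlap. Errors of log2 differences are standard errors. On simulated data with a log2 change of 2 in 200 of 12681 genes, 96% were recovered with 4 false calls. Changed genes were drawn from those with a culture mean over 2 on the log2 scale, and noise was independent in each library. Only the adjusted p-value was scored there, so the result does not cover low levels, differences between days or the full criteria of a call. Cuffdiff, used by the authors, needs reads. Interactions used 16 libraries, with each day of the ESCs as its own term. No 2 libraries shared a nonzero value over the genes compared. Python 3.11.15 with pandas 2.3.3 was used for the rest.

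Members and gene lists were chosen with earlier results of these data known. Genes named were the 12 largest differences in each direction among called genes over an FPKM of 5, predicted models left out, called members of the lists, the transgene factors, and the largest difference of a list without a call. Genes outside this rule are members of a list described as a group or are marked as picked after their values were seen. Groups came from the labels, and no batch is given in them. Alternatives were other pseudocounts, filters, scalings, fits and chromosome sets, and leaving out each library.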

Additional observations from a re-analysis of the deposited data

Results flagged for a closer look

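Single values lay apart from the other 5 cultures in 3 of the named genes, where chance alone marks about 1 group in 20. Zfp42-ps1 was at an FPKM of 0.112 in the second day 18 culture and at 0 in the others, Wdfy1 was at 3.99 in the second day 25 culture, and Malat1 was at 13.3 in the second day 18 culture.

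The difference of iPSCs from ESCs itself differed between 2iL and OSKM cells (limma interaction, adjusted p under 0.05) in 29 named genes, here as the 2iL minus the OSKM difference on the log2 scale. Over all genes it did so in 14.3% of 14082. Many genes were named for a large 2iL difference, which enters the interaction, so that passing was favoured for them. In the 2-cell-stage genes it was 1.41 for Zscan4f, 1.43 for Zscan4c, 1.45 for Zscan4e, 1.09 for Usp17lc, 0.79 for Tdpoz4, 1.52 for Gm8300 and 1.19 for Gm4340. It was positive in Zfp42-ps1 (2.54), Pygb (1.43), Rps15a-ps7 (4.66), Pou5f1 (0.63), Myc (1.66), Egr1 (2.27), Cdx1 (1.695) and Hoxc12 (0.59). Of the stress response genes, it was -1.76 in Chac1, -1.50 in Nupr1 and -2.22 in Gdf15. It was negative in the imprinted genes H19 (-2.06) and Sgce (-1.39), in Malat1 (-7.48) and Snord19 (-3.75), in Commd5 (-3.12) and Galnt6 (-3.02), in the interferon-linked Ubd (-2.58) and Bst2 (-2.77), in the hypoxia genes Pdk1 (-1.25) and Ddit4 (-2.10), and in the sterol regulator Srebf2 (-0.74). Values listed at 0 enter those of Malat1, Ubd, Snord19, Zfp42-ps1 and some 2-cell-stage genes, so that their size depends on the added 1 and is no bound.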

How the results depend on the processing

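Limits come from 2 clones against 6 cultures of 1 line, and precision at low FPKM is unknown because depth in reads is. Genes called higher and lower numbered 146 and 96. They were 97 higher at a pseudocount of 0.1, 272 and 63 with no filter, 313 and 256 with days as separate terms, 241 and 225 with day 38 cultures only, 314 and 243 with 9 conditions in 1 fit, and 340 and 403 with the day 18 cultures left out, an alternative chosen after seeing the data. Genes above the range numbered 2086 with no filter, and those above and below 3279 and 4377 with day 38 only and 2273 and 3577 without day 18. Of the 2-cell-stage genes, 1 was called at a pseudocount of 0.1, 3 with no filter, with quantile normalization or without chromosome 8, 2 at a mean FPKM over 1, 4 on TPM, 12 with day terms or 9 conditions and 11 without day 18. Of the ATF4 list, 2 were called with no filter, 9 with day terms or 9 conditions, 10 with day 38 only and 11 without day 18. The median of chromosome 8 in clone 6 was -0.29 with median-ratio scaling, -0.30 with quantile normalization and -0.40 without day 18. Leaving out 1 library gave 1318 to 2410 genes above and 1499 to 2916 below the range, 68 to 187 called higher and 37 to 133 lower, 0 to 11 called 2-cell-stage genes, 2 to 7 called ATF4 genes, and 545 to 1317 positive and 828 to 2241 negative interactions. Of the 24 genes named by size, 13 were still called without clone 3 and 16 without clone 6. Over named genes and alternatives, 1026 values kept direction and side of the adjusted p-value threshold, 149 no longer passed it and 45 newly passed it. These counts follow the limma adjusted p-value alone, without the fold and range criteria of a call. A further 2 turned direction, both in Pou5f1 (-0.0045 with quantile normalization, and -0.062 without clone 6 against 0.22 without clone 3). The cause was not tested. No paired analysis was possible because clones 3 and 6 and cultures 1 and 2 share no replicate number.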
